A study of Mus musculus with 8 samples.

Results

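The 10 genes followed here encode enzymes that make or cut ceramide, measured in mouse bone marrow-derived macrophages (BMDM) given So(d18:1), the lipid sphingosine. They were listed by enzyme class and found in the expression table by gene symbol: the serine palmitoyltransferase subunits Sptlc1 and Sptlc2, the ceramide synthases Cers2, Cers5 and Cers6, the desaturase Degs1, the ceramidases Asah1, Acer2 and Acer3, and the acid sphingomyelinase Smpd1. These are 10 of 55357 genes listed and, since all 10 had enough counts, 10 of 14514 tested.

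All cells came from C57BL/6J wild-type mice and were grown from marrow of the femur and tibia for several days with M-CSF, the growth factor that turns marrow precursors into macrophages. The treated group of 4 libraries received 2 μM sphingosine in methanol for 6 h, and the control group of 4 libraries received methanol for the same 6 h. The labels name no inflammatory stimulus, although the study's text places the experiment in stimulated cells. They do not say whether the libraries of a group came from separate animals or dishes. The study's legend for the pathway results of this RNA sequencing gives 4 biologically independent samples, without saying whether these were animals or dishes. Each p-value below therefore measures the spread between these libraries, and whether this is a spread between animals is not stated. RNA with a poly(A) tail was sequenced. The 4 control libraries held between 20819860 and 25114354 gene counts and the 4 treated ones between 17748397 and 26088609, and no enzyme activity or lipid level is part of these data.

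Ceramide is the hub of sphingolipid metabolism. In the endoplasmic reticulum, serine palmitoyltransferase joins serine to palmitoyl-CoA, a reductase makes sphinganine, a ceramide synthase adds a fatty acid, and a desaturase turns the resulting dihydroceramide into ceramide. In the lysosome and in other membranes, sphingomyelinases release ceramide from sphingomyelin and ceramidases cut it to free sphingosine, the compound added here. Free sphingosine can be acylated again by the ceramide synthases or phosphorylated and then cleaved by sphingosine-1-phosphate lyase.

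The macrophage label was borne out by Csf1r, Adgre1, Lyz2 and the other markers of a list of 7. CPM is the count scaled to library size by TMM (edgeR counts-per-million). The summed level of the 7 was 30123 to 32413 CPM in controls and 26006 to 30868 CPM after So(d18:1). Most of this sum was Lyz2, at 20085 to 22264 CPM in controls and 16779 to 20717 CPM after So(d18:1). In controls, Csf1r was at 6091 to 6305 CPM and Adgre1 at 2143 to 2264 CPM. Of these 7, Cd68 and Mertk fell and Itgam rose at an adjusted p under 0.05 by edgeR's quasi-likelihood test, and the call of Itgam was lost without So(d18:1) 2 (adjusted p = 0.0556). Each of the lists of lymphocyte, dendritic cell, stromal and erythroid markers summed to at most 33.1 CPM in any library, and no listed marker was at 0 in all 8. Neutrophil markers were higher in control libraries, with a sum of 1112 CPM in control 1, 1093 in control 2, 1500 in control 3 and 1311 in control 4 against 849 to 957 CPM with So(d18:1), and 4 of the 7 (S100a8, S100a9, Mpo and Elane) fell. S100a8 was called in all 8 fits with a library left out, whereas S100a9, Mpo and Elane were each called in 3 of the 8 (edgeR adjusted p up to 0.0741, 0.128 and 0.0956). Of these 4 genes, S100a8 alone was called without control 4 and without So(d18:1) 2, 3 or 4, and S100a8 and Mpo without So(d18:1) 1. In bulk RNA, fewer cells of a type and less RNA per cell cannot be told apart, and the part of these markers in the results below was not tested.

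With So(d18:1), 1 of the 10 genes, Smpd1, rose and the other 9 did not pass the test. This is 10.0% of the genes, where 8.94% of all tested genes had an adjusted p under 0.05 (edgeR's quasi-likelihood test with Benjamini-Hochberg adjustment over all genes), with 3.87% called higher and 5.07% called lower. By the threshold of the study's methods, an unadjusted p under 0.05 with a fold change of at least 1.5, none of the 10 passed where 3.89% of all tested genes did. That count of 0 was the same by DESeq2 and limma-voom, and 2 genes, Smpd1 and Degs1, had an unadjusted p under 0.05 in edgeR. A log2 fold change (log2FC) is given below with ± its standard error, and a mean in CPM with ± the SD of the 4 libraries of a group. The sizes were small throughout, with a median absolute log2 fold change of 0.052 for the 10 genes and 0.11 for all tested genes. These medians were not matched for counts, and genes with few counts have larger errors. The standard error was 0.27 for Acer2, with 14 to 35 counts per library, and 0.045 for Sptlc1, with 1194 to 1727. The median signed value of the 10 genes was -0.0078 (all tested genes, 0.0036), with 4 genes higher and 6 lower. The groups did not overlap for 2 of the 10 genes, Smpd1 and Sptlc1, where this held for 15.0% of all tested genes.

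**Figure D1:**
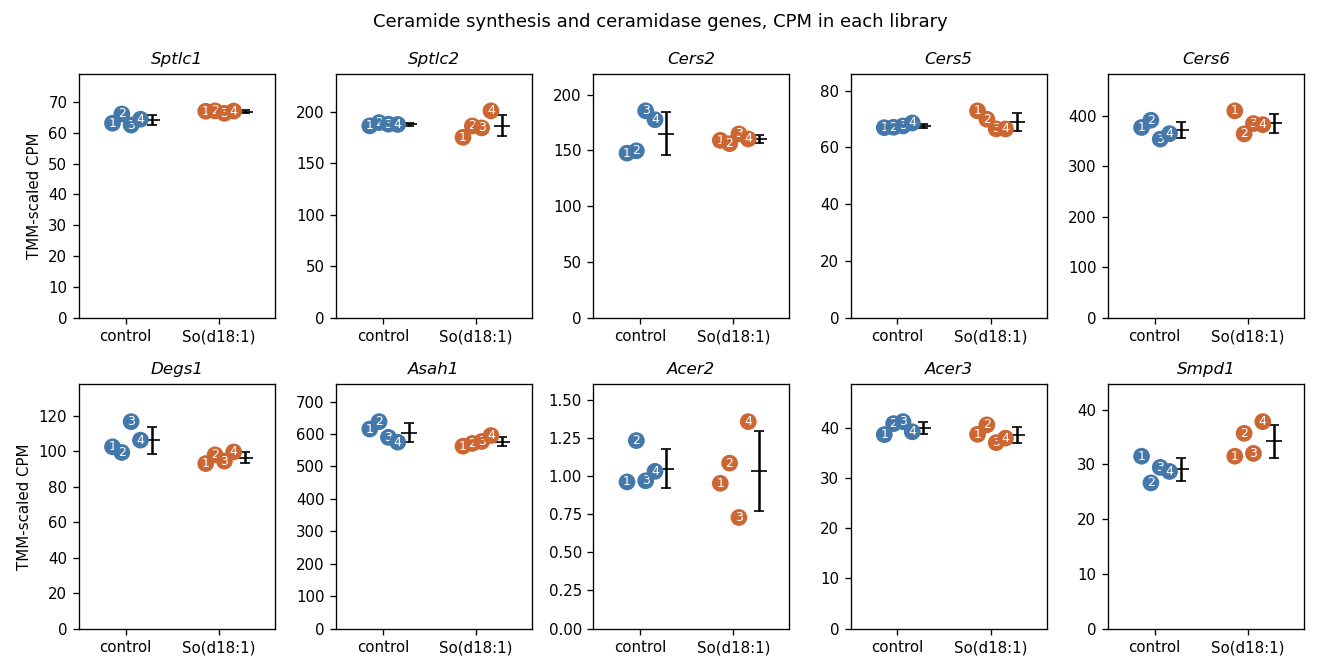
TMM-scaled CPM of the 10 genes in each library (y axis, from 0), with control libraries in blue and So(d18:1) libraries in orange, numbered by replicate. Black bars show mean ± SD of the 4 libraries. Smpd1 and Sptlc1 have groups that do not overlap, and Cers2 splits the controls into 147 and 150 CPM against 177 and 185 CPM.

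Start sites in the RefSeq table used here were matched for 9 of the 10 genes (11 windows, Asah1 not matched), and the 250 bases before each start were searched on both strands for CACGTG, the E-box letters bound by the TFEB and MYC families, for TCACGTGA, the core of the lysosomal CLEAR element, and for ACGTG, the core of hypoxia elements, which CACGTG contains. A gene was counted if any of its windows held the letters, and Cers2 and Acer3 have 2 windows each. The percentages of the annotation are shares of single windows, so the 2 measures differ. CACGTG was present for 3 of the 9 genes, Degs1, Cers2 and Cers6, in 6.02% of all 32817 windows of the annotation and in 8.25% of the windows of tested genes. ACGTG was present for 4, the same 3 and Acer3, in 16.6% of all windows and in 21.4% of those of tested genes. The Acer3 match lies 245 bases before a start whose first 20 bases were not found in GENCODE transcripts of the gene. Its other window, whose start was found in them, held no ACGTG. TCACGTGA was present for 0 of the 9, in 0.786% of all windows and in 1.5% of those of tested genes. The 3 windows with CACGTG are shown with those letters in capitals, beside that of Smpd1, the gene that passed the test and whose window holds none of these letters. A match is a description of the letters and not a binding site, and none of the 3 genes with CACGTG passed the test. Sequences run 5′ to 3′ on the strand of the gene (RefSeq, GRCm38.p6) and end at the base before the start, which for Degs1 and Cers2 lies inside the gene as GENCODE draws it.
Smpd1, chr7:105554110-105554359, plus strand: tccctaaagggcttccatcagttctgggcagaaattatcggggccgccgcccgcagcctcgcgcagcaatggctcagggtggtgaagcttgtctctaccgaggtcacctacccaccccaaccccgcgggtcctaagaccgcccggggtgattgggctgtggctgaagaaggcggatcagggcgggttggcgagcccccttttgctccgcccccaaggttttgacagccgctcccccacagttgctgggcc
Degs1, chr1:182282196-182282445, minus strand: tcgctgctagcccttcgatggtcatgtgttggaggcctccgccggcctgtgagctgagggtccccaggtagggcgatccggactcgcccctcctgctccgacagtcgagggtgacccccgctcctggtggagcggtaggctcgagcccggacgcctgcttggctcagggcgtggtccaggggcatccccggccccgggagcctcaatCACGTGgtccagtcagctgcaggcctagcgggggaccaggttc
Cers2, chr3:95314940-95315189, plus strand: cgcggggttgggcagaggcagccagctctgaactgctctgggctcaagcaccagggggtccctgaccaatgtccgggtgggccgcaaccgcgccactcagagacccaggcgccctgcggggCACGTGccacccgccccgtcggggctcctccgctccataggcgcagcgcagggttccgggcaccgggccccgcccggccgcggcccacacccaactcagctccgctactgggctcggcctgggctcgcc
Cers6, chr2:68861191-68861440, plus strand: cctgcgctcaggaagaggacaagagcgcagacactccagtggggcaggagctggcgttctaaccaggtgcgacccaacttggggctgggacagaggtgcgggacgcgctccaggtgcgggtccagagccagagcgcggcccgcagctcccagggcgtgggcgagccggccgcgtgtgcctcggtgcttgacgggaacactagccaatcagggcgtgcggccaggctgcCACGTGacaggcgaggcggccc

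Smpd1 encodes acid sphingomyelinase, the lysosomal enzyme that hydrolyses sphingomyelin to ceramide. Its gene spans bases 105554360 to 105558389 of chromosome 7 (GRCm38, the build called mm10). Counting gave 31.5 CPM in control 1, 26.6 in control 2, 29.5 in control 3 and 28.7 in control 4, and 31.5 CPM in So(d18:1) 1, 35.7 in So(d18:1) 2, 32.0 in So(d18:1) 3 and 37.8 in So(d18:1) 4. The groups were barely separate, since control 1 (31.513 CPM) lay just under So(d18:1) 1 (31.517 CPM), while So(d18:1) 2 and 4 stood clear of every control. The means were 29.1 ± 2.02 CPM without and 34.3 ± 3.02 CPM with So(d18:1), on 562 to 975 counts per library. The rise of 18.3% (95% interval 6.82% to 30.9%) was a log2FC of 0.24 ± 0.070 (edgeR adjusted p = 0.0359), and a two-sided exact permutation test of CPM gave p = 0.0286, the smallest that 4 against 4 libraries allow.

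The call of Smpd1 was lost in 5 of the 8 fits that leave out 1 library, with an adjusted p of 0.0849 without control 2, 0.0504 without control 3, 0.0849 without control 4, 0.110 without So(d18:1) 2 and 0.137 without So(d18:1) 4 (edgeR). The log2 fold change stayed between 0.19 and 0.28 in these 8 fits. It was also lost when both controls with the higher neutrophil sums, 3 and 4, were left out (log2FC 0.24, edgeR adjusted p = 0.107). The 3 tested genes whose log2 CPM followed Smpd1 most closely over the 8 libraries were Gm13050, Pef1 and Wdtc1, with Pearson's r of 0.967, 0.964 and 0.964. These values are the highest over all tested genes and describe 8 libraries that share the group difference. Wdtc1 was called (edgeR adjusted p = 0.0433), whereas Gm13050 and Pef1 were not (edgeR adjusted p = 0.152 and 0.144).

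The ceramidases, which cut ceramide into sphingosine and a fatty acid, did not pass the test. Asah1, the lysosomal acid ceramidase on chromosome 8 from 41340197 to 41374773, had the highest level per length of the 10 genes. It was counted at 615 CPM in control 1, 638 in control 2, 590 in control 3 and 575 in control 4, and at 562, 571, 577 and 595 CPM in So(d18:1) libraries 1 to 4. Controls 1 and 2 lay above every treated library, whereas controls 3 and 4 lay among them. The mean was 604 ± 28.005 CPM without and 576 ± 13.985 CPM with So(d18:1), a log2FC of -0.069 ± 0.043 (edgeR adjusted p = 0.365), with a 95% interval of -10.4% to 1.5%. Controls 3 and 4 are its lowest controls, so leaving them out had to enlarge the fall, and the log2FC was then -0.12 (edgeR adjusted p = 0.14).

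Acer3, an alkaline ceramidase of the endoplasmic reticulum and Golgi, lies on chromosome 7 from 98206389 to 98321208. It ranged from 38.7 to 41.3 CPM in controls and from 37.1 to 40.6 CPM after So(d18:1), and the groups overlapped. Its log2FC was -0.052 ± 0.055 (edgeR adjusted p = 0.618), with a 95% interval of -10.9% to 4.43%, and 3.67% of the 50-base words of its transcripts also occur in another gene, mainly Gm43042. Acer2, the Golgi alkaline ceramidase on chromosome 4 from 86874396 to 86934822, had few reads, with 14 to 35 counts per library. Its level was 0.962, 1.23, 0.970 and 1.03 CPM in control libraries 1 to 4 and 0.953, 1.09, 0.729 and 1.36 CPM in So(d18:1) libraries 1 to 4. At this depth the interval of the change ran from -32.2% to 46.1% (adjusted p = 0.992, edgeR), so a change of moderate size was not detectable for Acer2.

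Serine palmitoyltransferase carries out the first and rate-limiting step of ceramide synthesis, with Sptlc1 and Sptlc2 as its large subunits. Sptlc1 (chromosome 13 from 53332748 to 53377397) was at 63.1, 66.1, 62.5 and 64.4 CPM in control libraries 1 to 4 and at 67.0, 67.1, 66.3 and 67.0 CPM in So(d18:1) libraries 1 to 4. Every treated library lay above every control, with a gap of less than 1 CPM between the groups. The log2FC of 0.062 ± 0.045 did not pass the test across all genes (adjusted p = 0.449, edgeR), and the 95% interval was -2.21% to 11.5%, whereas the exact permutation test of its CPM gave the smallest possible p of 0.0286. The treated libraries were closer together, with a coefficient of variation of 0.556% against 2.49% in control.

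Sptlc2 (chromosome 12 from 87305058 to 87388355) showed the opposite spread. Control libraries held 187, 190, 188 and 188 CPM (coefficient of variation 0.684%), and So(d18:1) libraries held 175, 186, 184 and 201 CPM (5.71%). The treated libraries lay on both sides of the controls. Its log2FC was -0.0085 ± 0.045 (edgeR adjusted p = 0.937), with a 95% interval of -6.78% to 6.01%.

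The ceramide synthases differ in the fatty acid they attach. Cers2 prefers very long acyl chains, and Cers5 and Cers6 prefer palmitoyl-CoA. Cers6, on chromosome 2 from 68861441 to 69114282, was at 377, 392, 354 and 365 CPM in control libraries 1 to 4 and at 410, 365, 385 and 383 CPM in So(d18:1) libraries 1 to 4. The groups overlapped (log2FC 0.052 ± 0.046, edgeR adjusted p = 0.545). Cers5, on chromosome 15 from 99734881 to 99772885, varied least between controls among the synthases, from 67.0 to 68.6 CPM, and ranged from 66.5 to 72.9 CPM with So(d18:1) (log2FC 0.029 ± 0.047, edgeR adjusted p = 0.772).

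Cers2, on chromosome 3 from 95314791 to 95323599, was counted at 147 CPM in control 1, 150 in control 2, 185 in control 3 and 177 in control 4, and at 159, 156, 165 and 160 CPM in So(d18:1) libraries 1 to 4. All treated libraries lay between the lower and the higher pair of controls. The control coefficient of variation was 11.7% against 2.28% with So(d18:1), and the log2FC was -0.045 ± 0.066 (edgeR adjusted p = 0.741). Controls 3 and 4 were also those with the higher neutrophil marker sums, 1500 and 1311 CPM against 1112 and 1093 CPM, and the part of these cells in the level of Cers2 was not tested. Controls 3 and 4 are the higher pair for Cers2, so leaving both out fixed a change of sign in advance. The log2 fold change of Cers2 was then 0.11 (adjusted p = 0.223, edgeR), and without control 3 alone it was 0.017. Exons of Cers2 overlap Setdb1 and 6330562C20Rik on the other strand, and as the strand setting of the counting is not given in the sources used here, reads of these genes may be among its counts.

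Degs1 encodes dihydroceramide desaturase and spans bases 182275772 to 182282804 of chromosome 1. It was found at 102 CPM in control 1, 99.2 in control 2, 117 in control 3 and 106 in control 4, and at 93.0, 97.9, 94.4 and 99.5 CPM in So(d18:1) libraries 1 to 4. So(d18:1) 4 lay just above control 2, and the other 3 treated libraries lay below all controls. The mean was 106 ± 7.55 CPM without and 96.2 ± 3.04 CPM with So(d18:1). The log2FC of -0.14 ± 0.051, a difference of -9.30% (95% interval -15.7% to -2.41%), had an unadjusted p of 0.0115 and did not pass over all genes (adjusted p = 0.0911, edgeR). The exact permutation test of CPM gave p = 0.0571. Degs1 passed in 1 of the 8 fits with a library left out, that without control 2 (log2FC -0.17, edgeR adjusted p = 0.0392), and its value was smallest, -0.091, without control 3. Controls 3 and 4 are its highest controls, so leaving both out had to shrink the difference, and the log2FC was then -0.068 (adjusted p = 0.529, edgeR).

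**Figure D2:**
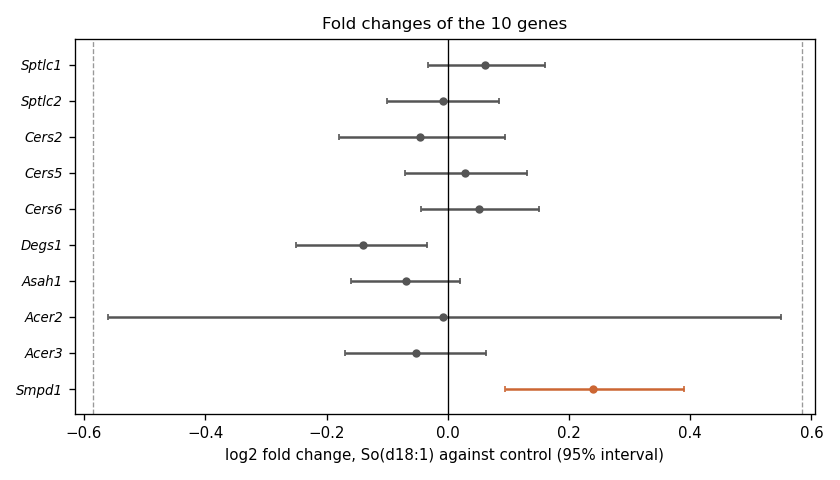
Log2 fold change of each of the 10 genes, So(d18:1) against control, with its 95% interval (x axis) by edgeR's quasi-likelihood fit. Orange marks an adjusted p under 0.05, and dashed lines mark a fold change of 1.5 in either direction. Smpd1 alone is orange, at 0.24, and Acer2 has the widest interval.

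**Figure D3:**
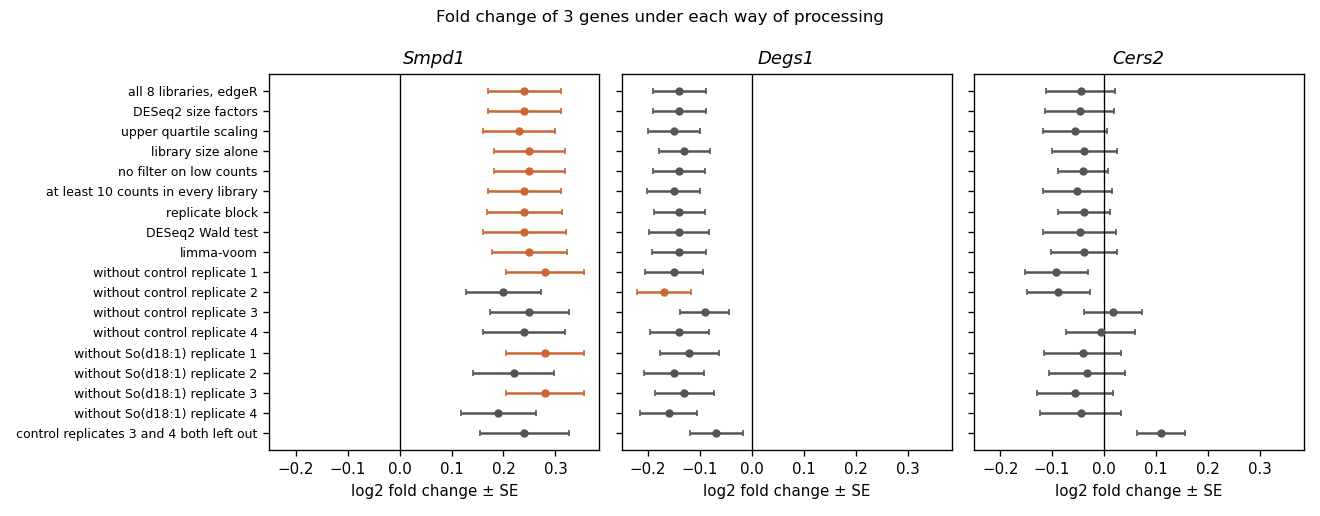
Log2 fold change ± standard error (x axis) of Smpd1, Degs1 and Cers2 under each way of processing (y axis), with an adjusted p under 0.05 in orange. Smpd1 stays between 0.19 and 0.28 but loses its call in 6 settings, Degs1 is called in 1, and Cers2 crosses 0 without control 3.

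Leaving Smpd1 and Acer2 aside, the 95% intervals of the other 8 genes lay between -15.7% (Degs1) and 11.5% (Sptlc1).

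Levels between genes were compared per length, as CPM per kb of exon. Asah1 led with 178 ± 8.26 CPM per kb in control libraries (SD, n = 4), followed by Cers2 (44.9 ± 5.25), Cers6 (41.9 ± 1.81) and Degs1 (41.0 ± 2.91). Sptlc2 (23.2 ± 0.159), Cers5 (19.1 ± 0.212) and Sptlc1 (18.0 ± 0.449) came next, then Smpd1 (8.72 ± 0.604), Acer3 (2.61 ± 0.0816) and Acer2 (0.147 ± 0.0177). Over the 8 libraries the ranges of neighbours in this order overlapped for Cers2 and Cers6, for Cers6 and Degs1, and for Cers5 and Sptlc1, and the other neighbours were separate. Among ceramidases, acid ceramidase RNA was therefore far above both alkaline ones in every library, although the deposited length counts the exons of all isoforms, which lowers the value of genes with long unused exons. Acer3, at 15324 bases, is the longest of the 10.

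**Figure D4:**
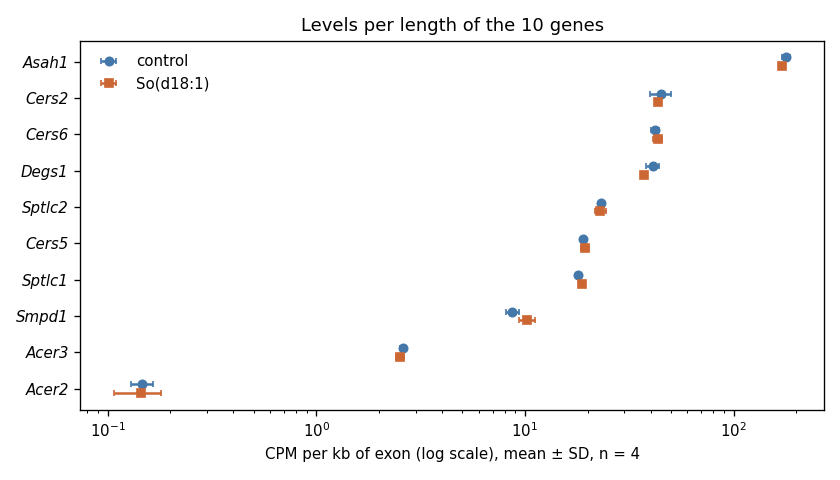
CPM per kb of exon (x axis, log scale) of the 10 genes in control (blue circles) and So(d18:1) libraries (orange squares), mean ± SD of 4 libraries. Asah1 is highest at 178 and Acer2 lowest at 0.147 CPM per kb in control, and the order is led by Asah1 in both groups.

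The rest of sphingolipid metabolism was described with lists of 49 further genes, of which 41 had enough counts to be tested. Of these 41, 9 were called at an adjusted p under 0.05 (22.0%, against 8.94% of all tested genes), with 3 higher and 6 lower. The median log2 fold change of the 41 was -0.018, against 0.0036 for all tested genes. No test of the lists was made.

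Around the first step of synthesis, none of the 5 other genes tested passed, and Sptssa, the small subunit of serine palmitoyltransferase, had a log2FC of 0.021 (edgeR adjusted p = 0.909). Sptlc3 and Sptssb were listed with 0 counts in all 8 libraries, which allows up to 3 counts, or 0.169 CPM in the smallest library. Among the other synthases and desaturases, Cers1 had at most 4 counts and Cers3 at most 7 per library, and Cers4 was at 3.87 ± 0.332 CPM without and 4.47 ± 0.979 CPM with So(d18:1) (adjusted p = 0.448, edgeR). Fads3, which desaturates ceramides at another position, fell from 5.86 ± 0.908 to 4.26 ± 0.532 CPM, a log2FC of -0.46 ± 0.14 (edgeR adjusted p = 0.0492), and this call was lost in 7 of the 8 fits with a library left out, all but that without control 2 (adjusted p up to 0.155), and without controls 3 and 4 together (adjusted p = 0.191). Among the other ceramidases, Asah2, the neutral ceramidase, had a log2FC of 0.14 (edgeR adjusted p = 0.235), and Acer1 was at 0 counts in every library.

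Among genes of sphingomyelin turnover, the largest changes were in opposite directions. Smpdl3b, an acid sphingomyelinase-like phosphodiesterase of the cell surface, was at 4.33, 4.86, 3.50 and 4.33 CPM in control libraries 1 to 4 and at 8.69, 7.96, 6.93 and 9.35 CPM in So(d18:1) libraries 1 to 4. Every treated library lay well above every control. Its log2FC was 0.95 ± 0.13 (edgeR adjusted p = 6.17e-05), and it was called in all 8 fits with a library left out. Smpd3, the neutral sphingomyelinase of the plasma membrane and Golgi, was at 5.10, 5.89, 6.83 and 6.48 CPM in control libraries 1 to 4 and at 4.26, 3.26, 3.59 and 2.91 CPM in So(d18:1) libraries 1 to 4. The groups did not overlap, and it fell by 0.81 ± 0.15 on the log2 scale (edgeR adjusted p = 0.00108), again called in all 8 fits. Exons of Smpd3 overlap Prmt7 on the other strand. The other 6 of the 8 genes tested beside Smpd1 did not pass, with Smpdl3a, the most abundant per length at 200.1 CPM per kb in control, at a log2FC of -0.0049 (edgeR adjusted p = 0.966).

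None of the 5 genes for ceramide transfer and phosphorylation passed. Col4a3bp, the ceramide transfer protein, had a log2FC of -0.12 ± 0.043 (edgeR adjusted p = 0.0803), and Cerk, the ceramide kinase, one of -0.11 ± 0.041 (edgeR adjusted p = 0.0859). Gltp, a glycolipid transfer protein, was the most abundant of them per length, at 173 CPM per kb in control.

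Of 15 glycosphingolipid genes tested, 1 rose and 3 fell. B4galt6 and B4galt5, the lactosylceramide synthases, fell from 496 ± 17.7 to 424 ± 5.50 CPM and from 85.3 ± 3.53 to 75.8 ± 3.89 CPM, with log2FC values of -0.23 (edgeR adjusted p = 0.00103) and -0.17 (edgeR adjusted p = 0.0334). Glb1, the lysosomal beta-galactosidase, rose from 125 ± 1.28 to 139 ± 8.09 CPM (log2FC 0.15, edgeR adjusted p = 0.0471), and its exons overlap Tmppe on the same strand. The call of B4galt6 was made in all 8 fits with a library left out, that of B4galt5 in 3 (lost without control 1, 3 or 4 or So(d18:1) 2 or 4, adjusted p up to 0.127) and that of Glb1 in 1 (without So(d18:1) 3, otherwise adjusted p up to 0.157, edgeR). Without controls 3 and 4 together, B4galt5 (adjusted p = 0.129) and Glb1 (adjusted p = 0.126, edgeR) were not called. Psap, the saposin precursor whose products assist acid ceramidase and other lysosomal hydrolases, was the most abundant per length of these genes, at 12421 ± 723 CPM without and 11574 ± 444 CPM with So(d18:1) (log2 fold change -0.10, adjusted p = 0.203, edgeR).

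Beyond sphingosine itself, Sgpl1, the lyase that cleaves sphingosine-1-phosphate and the only exit from the pathway, fell from 906 ± 15.8 to 815 ± 13.7 CPM, a log2FC of -0.15 ± 0.039 (edgeR adjusted p = 0.0177). Aldh3a2, the dehydrogenase that oxidises the fatty aldehyde the lyase releases, rose from 99.8 ± 2.50 to 115 ± 6.24 CPM, a log2FC of 0.20 ± 0.047 (edgeR adjusted p = 0.00756). Sphk2, the sphingosine kinase with most counts here, was at 83.9 ± 4.15 and 83.8 ± 3.67 CPM, and Sphk1 had at most 4 counts per library. Exons of Sphk2 overlap Dbp and Rpl18 on the other strand, and 18.3% of its 50-base words also occur in another gene. As the strand setting is not given, reads of these genes may be among its counts. The call of Sgpl1 was lost without control 1 (adjusted p = 0.0718) and without So(d18:1) 2 (adjusted p = 0.0674, edgeR), and that of Aldh3a2 was made in all 8 fits.

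**Figure D5:**
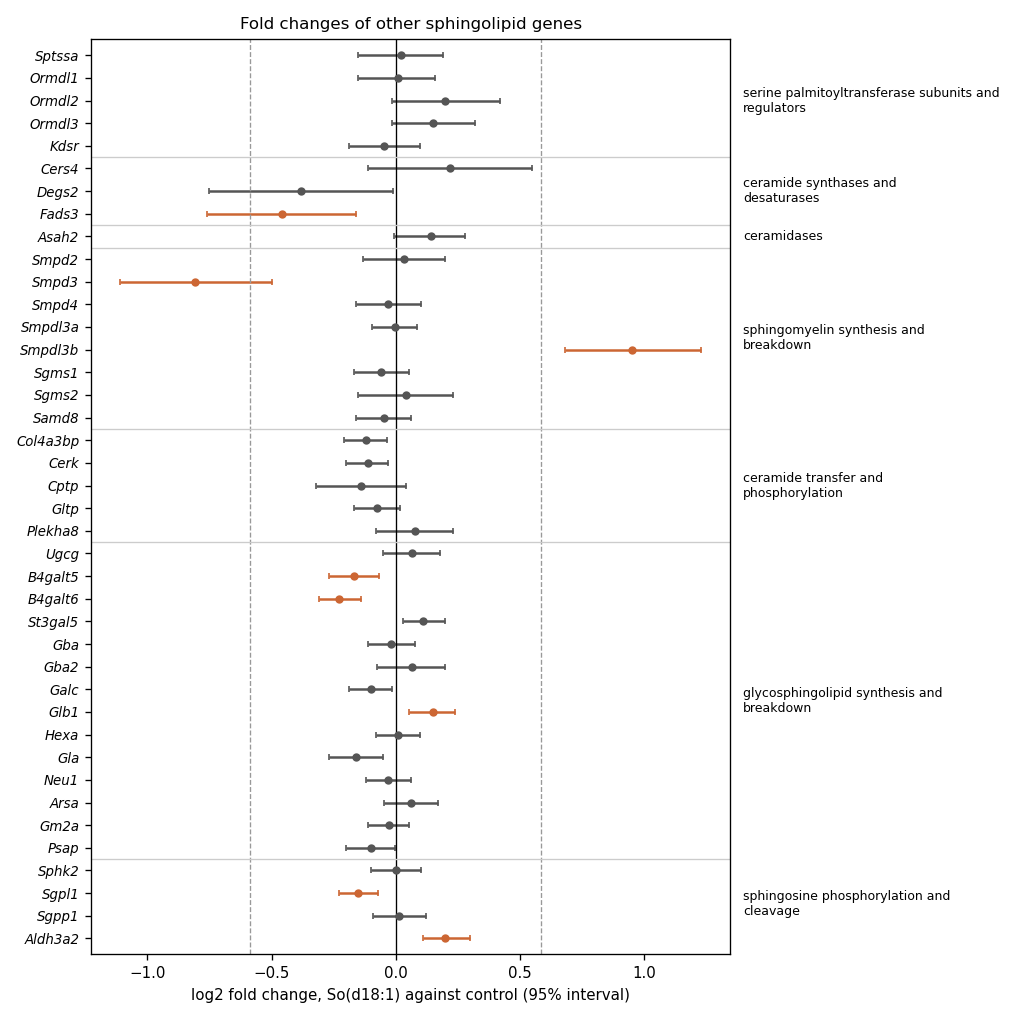
Log2 fold change with 95% interval (x axis) of the other sphingolipid genes described, grouped by list at the right, with an adjusted p under 0.05 in orange and dashed lines at a fold change of 1.5. Smpdl3b (0.95) and Smpd3 (-0.81) lie furthest from 0, and the other called genes shown lie within -0.46 and 0.20.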

How the data were processed

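Messenger RNA with a poly(A) tail was sequenced from 8 BMDM libraries. Per the labels, the tools used by the authors were Trim Galore 0.6.7, HISAT2 2.2.1 and featureCounts 2.0.1 with the mm10 build, and the authors deposited whole-number counts without normalization, with a gene length in bases. The strand setting and the handling of reads with several matches are not given in the sources used here. Columns were matched to libraries by name. Symbols and positions came from GENCODE release M21 (GRCm38), which names 52081 of the 55357 identifiers. The 10 genes, the other lists and the rule for naming genes (all 10 genes, called pathway genes, those of highest level per length, and the 3 genes most like the member with the smallest adjusted p) were chosen with earlier results of these data known.

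Counts were filtered by filterByExpr, scaled by TMM and compared between the groups over all genes with the quasi-likelihood F test of edgeR 4.0.16 (robust dispersion) in R 4.3.3. Benjamini-Hochberg adjustment covered all tested genes, and genes were called at 0.05. Standard errors came from the size of the log2 value over the root of its F statistic, and intervals are 95% intervals from it. Log2 CPM used a prior count of 2. Replicates differed by more than counting noise (chi-square per gene 2.75 to 12.1). The fit was tested on simulated data with changes put into genes taken at random. It called 38.8% of changes of 1.2-fold, 63.1% of 1.5-fold, 80.3% of 2-fold and 0.0778% of unchanged genes. These rates are for genes taken at random, so some genes that did not pass may hold a change of 1.2-fold. Among the ceramide genes that did not pass, the 95% interval of Acer2 (-32.2% to 46.1%) allows such a change. The intervals of the other 8 lay between -15.7% (Degs1) and 11.5% (Sptlc1) and do not reach it. The alternatives were other scalings, filters and tests (DESeq2 1.42.0, limma 3.58.1), the replicate number as a block, and each library left out. A fit without controls 3 and 4 was chosen after seeing the data. The values of 1 called pathway gene are not reported here, and the counts include it. Figures were drawn with matplotlib 3.10.9.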

Additional observations from a re-analysis of the deposited data

Results flagged for a closer look

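Of 38 groups of 4 libraries (the 10 genes and the 9 called pathway genes in each condition), 2 held a library apart from the other 3 by Dixon's ratio of its gap to the range of the group, where chance gives about 1.9 (1 in 20). Sptlc1 had a ratio of 0.833 in So(d18:1) libraries, with a log2 CPM of 6.05 in replicate 3 against 6.07 in the others. B4galt6 had a ratio of 0.836, with 8.75 in So(d18:1) replicate 3 against 8.72 in the others.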

How the results depend on the processing

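Under the other scalings, filters and tests and the replicate block, the 10 genes kept their direction and side of the threshold in each fit. With 1 library left out, 1 gene or none was called (from 0 to 1 of 10), and the 1 was Degs1 in place of Smpd1 without control replicate 2. None was called (0 of 10) without controls 3 and 4, the alternative added after seeing the data. Genes with a fold change near 0 changed sign with 1 library left out, and none of these was called: Sptlc2 ranged from -0.046 to 0.021, Cers2 from -0.092 to 0.017 and Acer2 from -0.18 to 0.12 on the log2 scale. Cers2 stood at 0.11 without controls 3 and 4, its higher pair of controls, a choice that fixed this sign in advance. The count over all genes ranged from 815 (without So(d18:1) replicate 2) to 1370 with 1 library left out and was 865 without controls 3 and 4, where fewer libraries were fitted. It was 1723 with no filter. Pathway genes called ranged from 5 (without control replicate 1 or So(d18:1) replicate 2) to 9 with 1 library left out. Fads3 was not called with library size alone or limma-voom, and Glb1 was not called with DESeq2 size factors, upper quartile scaling, at least 10 counts in every library or limma-voom. The cause of these changes was not tested. With the replicate block, 1784 genes were called, 1 of the 10 (Smpd1, log2 fold change 0.24, adjusted p = 0.0301, edgeR) and 9 pathway genes. The numbers do not pair the libraries, since the correlations of same-numbered deviations were -0.00351, 0.1, 0.0331 and 0.00909 and only replicate 2 correlated best with its own number. Depth limits Acer2 most, with 14 to 35 counts per library.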
